A study of Homo sapiens with 9 samples.

Results

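The genes described here encode proteins that choose and execute splice sites: the serine/arginine-rich (SR) proteins SRSF1 to SRSF11, the TRA2 proteins, the heterogeneous nuclear ribonucleoproteins (hnRNPs), the factors that recognise the branch point and the 3′ splice site, proteins of nuclear speckles, and the CLK kinases. They were taken from a list of 44 gene symbols, and the rule for membership uses no measured value, although the list was drawn up with earlier results of these data known. Of these, 43 matched a row of the table of 15354 genes by Ensembl identifier, and all 43 were among the 13893 genes tested. SRSF8 matched no row and was not analysed here.

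RNA came from HCT116, an established human colorectal cancer cell line, in 9 libraries. The 3 control libraries received a commercial non-targeting siRNA, 3 libraries are labelled siRNA A and 3 are labelled siRNA B. Both siRNAs were directed against SNHG5, a long non-coding RNA that hosts small nucleolar RNAs, and every library was reverse transfected. The labels give 25 nM of siRNA, while the study's general methods give another concentration. Per the study's methods the 3 libraries of a group were biological replicates. The libraries held 15566530 to 23277549 reads, and the least abundant member still had at least 152 reads in each library. In TMM-scaled CPM (reads of a gene as a share of its library, after scaling between libraries by the trimmed mean of M values), SNHG5 stood at 31.3, 22.1 and 25.9 in the control libraries, at 71.5, 58.8 and 67.3 in those labelled siRNA A, and at 46.2, 50.3 and 46.1 in those labelled siRNA B. The targeted transcript was therefore higher, not lower, in the libraries that carry the siRNA labels, with no overlap between groups. By qRT-PCR the paper reports that both siRNAs lowered SNHG5 in HCT116 cells. Whether the library labels are right was not tested, and each direction given below is that of the libraries so labelled.

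SR proteins bind exonic enhancers through RNA recognition motifs and recruit the spliceosome through an arginine and serine-rich domain, which CLK and SRPK kinases phosphorylate. Most hnRNPs coat nascent transcripts and often repress the use of nearby splice sites, so that many exons are set by the balance of both families. Many genes of both families hold an exon or intron whose inclusion directs their own transcript to nonsense-mediated decay (NMD), a feedback on their level. In the gene annotation, 37 of the 43 members (86.0%) had at least 1 transcript marked for NMD, against 48.2% of the 11879 tested protein-coding genes. A transcript with a retained intron was annotated for 37 members (86.0%), against 61.7% of the tested protein-coding genes. The deposited values count reads per gene, so which of these transcripts were present was not measured.

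In the libraries labelled siRNA A, SR protein and hnRNP transcripts were mostly higher than in control, and in those labelled siRNA B fewer were called. There 4 of 10 SR protein genes rose (40%, all genes 15.6%) and none fell. Of 22 hnRNP genes 4 rose (18.2%) and 3 fell (13.6%, all genes 18.3%) with siRNA B. Of the 43 members, 27 rose with siRNA A (62.8%), where 23.9% of all tested genes were called higher. A further 4 fell (9.30%, all genes 27.6%) and 12 were not called. With siRNA B, 13 rose (30.2%, all genes 15.6%), 5 fell (11.6%, all genes 18.3%) and 25 were not called. Called means an adjusted p under 0.05 by limma on log2(TMM-scaled CPM + 1), with Benjamini-Hochberg adjustment over all 13893 genes. The median log2 fold change of the members was 0.54 with siRNA A and 0.19 with siRNA B, where the median of all genes was −0.02 and 0.0043. In bulk RNA such as this, a change in the number of cells of a kind and a change in RNA per cell cannot be told apart.

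Compared directly, 23 members were higher with siRNA A than with siRNA B (53.5%, all genes 17.6%), 5 were lower (11.6%, all genes 19.5%) and 15 were not called. The median of this difference was 0.34 on the log2 scale. The comparisons against control share the same 3 control libraries. Of the calls against control, those of 22 of the 27 genes that rose and 3 of the 4 that fell with siRNA A held when any 1 of the 9 libraries was left out, while with siRNA B this was so for 6 of 13 and 4 of 5. Without control replicate 2 the number higher with siRNA B was 7 in place of 13. Without siRNA A replicate 2, or siRNA B replicate 1 or 3, the number lower with siRNA A than with siRNA B was 3 in place of 5.

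Scaling decides part of these counts. TMM factors averaged 1.14 in control, 0.886 in siRNA A and 0.988 in siRNA B, and with library totals alone the median gene moved to −0.34 (siRNA A) and −0.18 (siRNA B). On that scale 15 members rose with siRNA A (34.9%, all genes 9.05%) and 7 fell (16.3%, all genes 47.0%). With siRNA B, 6 rose (14.0%, all genes 6.90%) and 7 fell (16.3%, all genes 29.7%), and the members' median turned from 0.19 to −0.02. Between siRNA A and siRNA B, 15 were higher (34.9%, all genes 10.2%) and 7 lower (16.3%, all genes 27.0%). The summed level of all members was 15598 ± 268 CPM as deposited in control, 16505 ± 406 in siRNA A and 14998 ± 465 in siRNA B (SD, n = 3). After TMM scaling the sums were 13650 ± 744, 18633 ± 467 and 15190 ± 231.

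**Figure D1:**
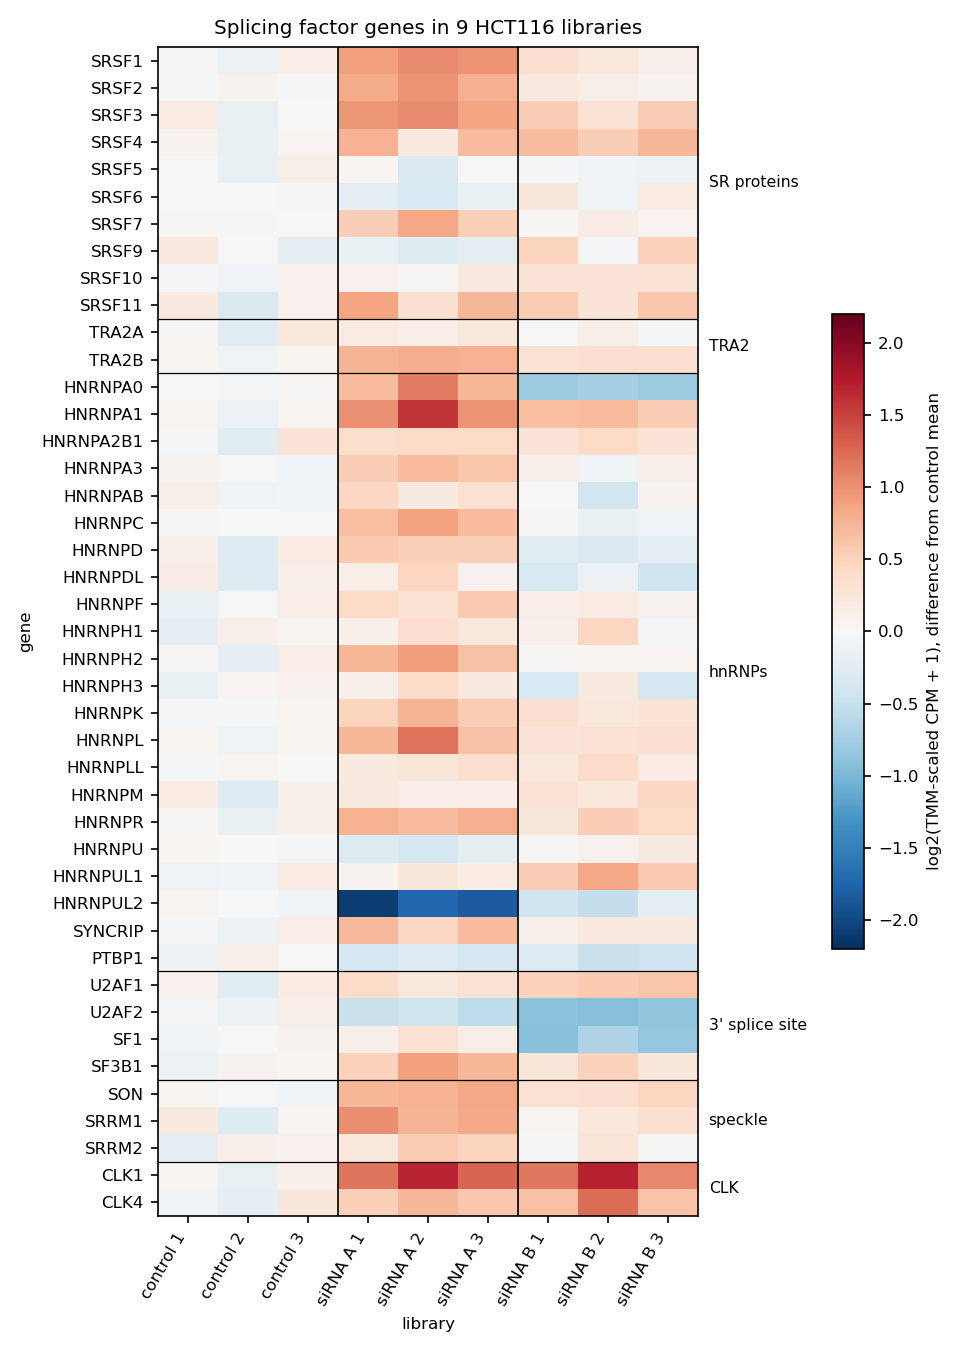
Each row is 1 of the 43 genes and each column 1 library; colour gives log2(TMM-scaled CPM + 1) minus the mean of the 3 control libraries. Most SR protein and hnRNP rows are red in the siRNA A columns, HNRNPUL2 is the darkest blue there, and HNRNPA0 and SF1 are blue in the siRNA B columns.

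**Figure D2:**
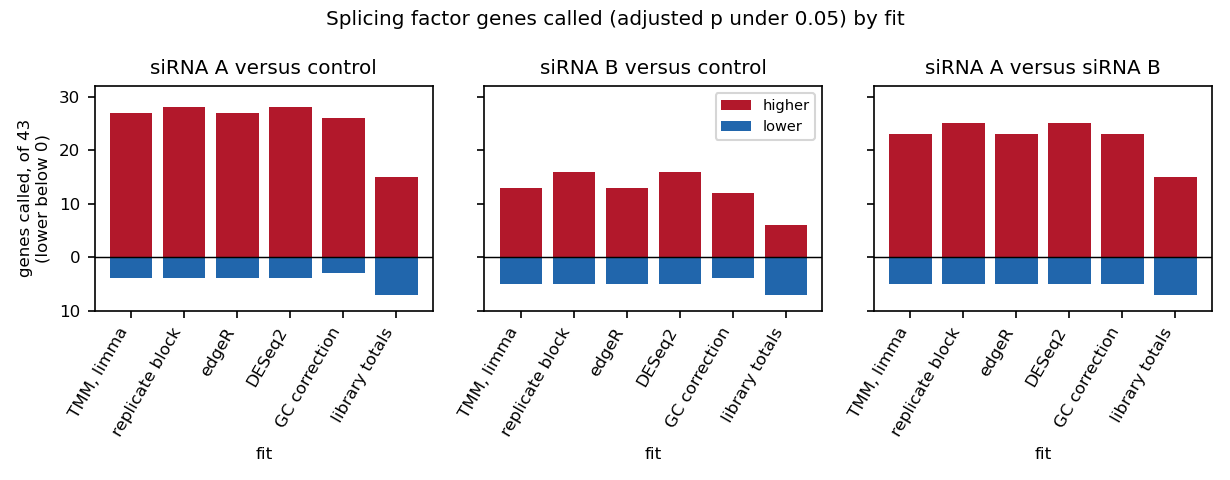
Bars count the genes, of 43, called higher (above 0) or lower (drawn below 0) in each comparison under 6 fits. The counts higher with siRNA A run from 26 to 28 in 5 of the fits and drop to 15 with library totals alone.

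Other measures moved with the groups. Of 10 colorectal epithelial markers, 9 had a row, and their summed TMM-scaled CPM was 1850 to 1995 in control, 3148 to 4187 in siRNA A and 2451 to 2625 in siRNA B. KRT8, KRT18 and KRT19, keratins of simple epithelia, made up most of that sum and rose with siRNA A by 1.01 to 1.09 on the log2 scale, as did the transcription factor ELF3 (1.43). EPCAM (−0.55, adjusted p = 0.00121, limma) and CLDN3 (−0.43, adjusted p = 0.0429) fell with siRNA A, and CDH1, CLDN4 and VIL1 were not called there. Of 12 markers of other cell types, 5 had a row, with sums of 16.7 to 18.5, 11.8 to 14.7 and 9.69 to 11.5, nearly all of it COL1A1. ALB and COL3A1 were at 0 in some libraries and at most 0.160, and CD14 was at most 0.537. Exons of the members had a median GC content of 43.8%, against 49.0% for tested protein-coding genes. With each library's dependence on GC removed, 26 members were higher and 3 lower with siRNA A (median 0.45), and 12 were higher and 4 lower with siRNA B (median 0.16). The part of these marker differences in the results was not tested.

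**Figure D3:**
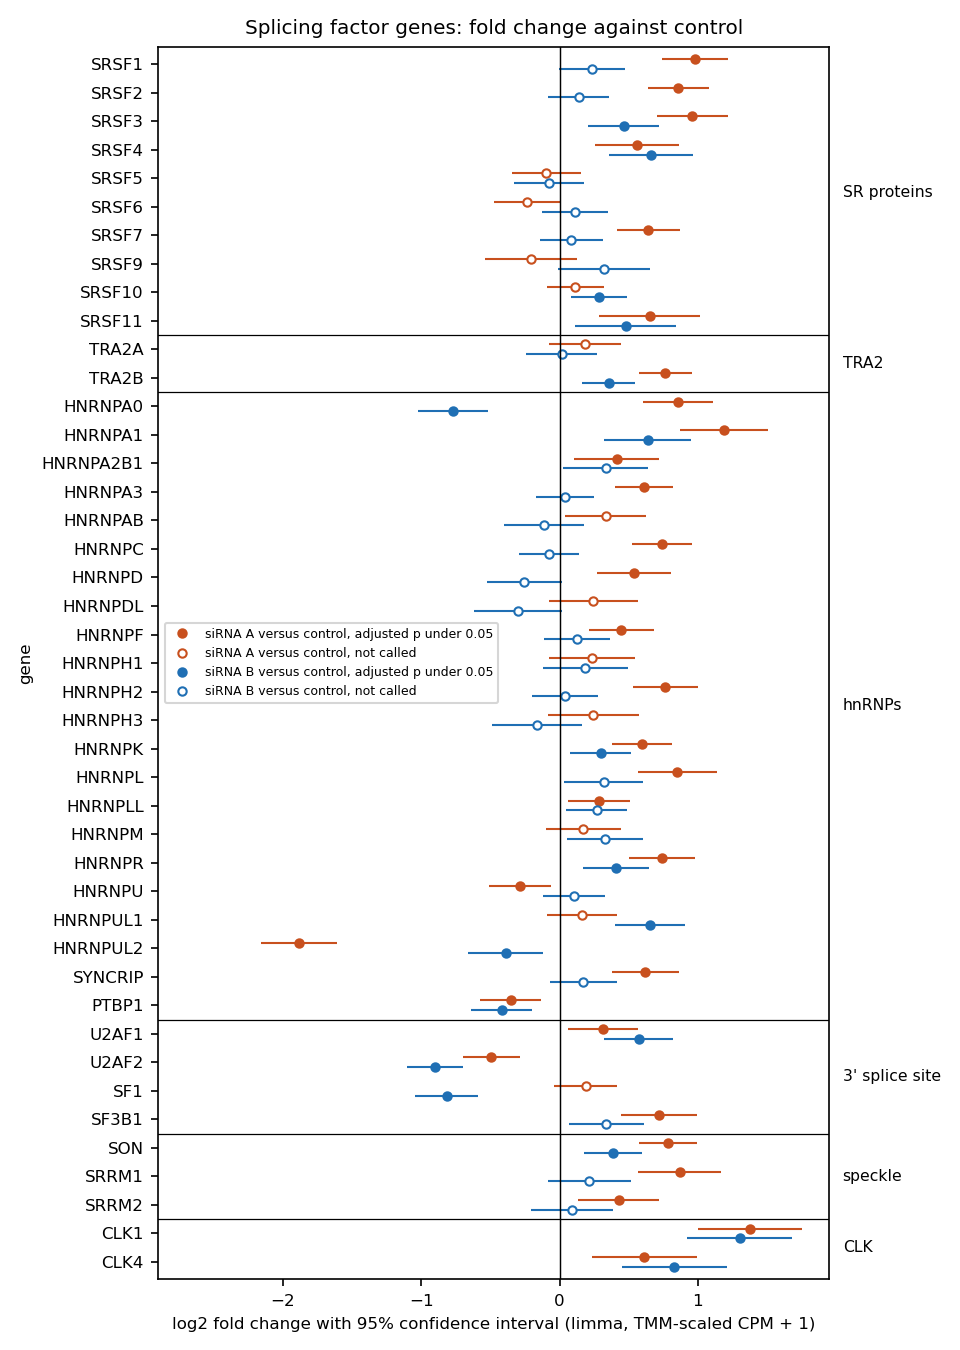
Points give the log2 fold change of each gene against control with its 95% confidence interval, filled where the adjusted p was under 0.05. The siRNA A points lie mostly right of 0, with HNRNPUL2 at −1.88 the exception farthest to the left, and HNRNPA0 is the gene whose filled points lie on opposite sides.

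The promoters of 4 members with large changes are shown for reference. CLK1 had the largest rise in both comparisons, HNRNPUL2 the largest fall with siRNA A, HNRNPA0 moved in opposite directions and SF1 fell with siRNA B, where U2AF2 alone among the members fell further, while its siRNA A value was not called. The 120 bases before the start of each gene are given 5′ to 3′ on the gene's own strand, from RefSeq on GRCh38.p14, with letters of a GC box (GGGCGG or its reverse complement) and of a CCAAT box (CCAAT or its reverse complement) in capitals. They lie on the minus strand at chr2:200864659-200864778 (CLK1), chr5:137754364-137754483 (HNRNPA0), chr11:62727458-62727577 (HNRNPUL2) and chr11:64778543-64778662 (SF1).
CLK1: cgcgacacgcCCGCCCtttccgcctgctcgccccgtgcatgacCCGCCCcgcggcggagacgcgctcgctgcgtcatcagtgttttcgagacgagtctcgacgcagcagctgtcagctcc
HNRNPA0: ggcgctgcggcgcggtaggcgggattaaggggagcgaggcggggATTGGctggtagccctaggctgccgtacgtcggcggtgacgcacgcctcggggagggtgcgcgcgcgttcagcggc
HNRNPUL2: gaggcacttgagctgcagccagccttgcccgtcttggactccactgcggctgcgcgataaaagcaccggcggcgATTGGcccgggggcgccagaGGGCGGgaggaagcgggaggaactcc
SF1: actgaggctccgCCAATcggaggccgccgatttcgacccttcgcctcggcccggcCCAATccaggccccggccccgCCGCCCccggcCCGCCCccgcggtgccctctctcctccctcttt

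Over the 250 bases before the start, 40 members matched a RefSeq promoter. A GC box stood in 27 of them (67.5%, 42.6% of 35116 promoters) and a CCAAT box in 18 (45%, 32% of all). The 35116 promoters were not limited to the genes tested here, whereas the members were all tested, so the shares compare unlike sets. The letters TATAAA stood in 5 members (12.5%, 10.7% of all), CCGGAAG in 6 (15%, 8.52% of all), GCATGCGC in 2 (5%, 2.63% of all) and TGACGTCA in 0 (1.65% of all). CTCGCGAG was present in 4 members, HNRNPK, HNRNPUL1, SRSF10 and SRSF4 (10%, 0.874% of all). Both strands were searched, and the motifs do not overlap in the bases printed above. These are matches of letters and say nothing of a factor at these sites.

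Among the SR proteins, 6 of the 10 genes with a row rose with siRNA A (60%, all genes 23.9%) and 4 with siRNA B (40%, all genes 15.6%). None fell in either comparison. Under library totals 4 rose (40%, all genes 9.05%) and 3 fell (30%, all genes 47.0%) with siRNA A. With siRNA B 1 rose (10%, all genes 6.90%) and none fell on that scale. The median log2 fold change was 0.60 with siRNA A and 0.26 with siRNA B, and 0.23 and 0.05 with library totals alone. SRSF1, the founding member of the family, stood at 422, 395 and 479 TMM-scaled CPM in control. It stood at 804, 890.3 and 858 in siRNA A and at 549, 507 and 468 in siRNA B. Every siRNA A library was above all others, while control and siRNA B overlapped. The log2 fold change was 0.98 ± 0.11 (SE, adjusted p = 3.67e-05, limma) with siRNA A and 0.23 ± 0.11 (adjusted p = 0.12) with siRNA B. The 2 siRNA groups differed by 0.74 (adjusted p = 0.000418, limma).

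SRSF2, also called SC35 and long used as a marker of nuclear speckles, followed the same order. Its control libraries held 386, 419 and 387 TMM-scaled CPM, those of siRNA A 698, 792 and 680, and those of siRNA B 460.3, 434 and 419. It rose by 0.86 ± 0.10 on the log2 scale with siRNA A (adjusted p = 4.74e-05, limma), whereas its siRNA B value was 0.14 (−0.08 to 0.36, 95% confidence interval). SRSF3, the smallest SR protein and a shuttling export adaptor, rose in both groups, by 0.96 ± 0.12 and 0.46 ± 0.12. Its values were 342, 268 and 299 in control, 594, 620.3 and 549 in siRNA A, and 441, 373 and 438 in siRNA B, so no group overlapped another. SRSF7, which carries a zinc knuckle beside its RNA recognition motif, rose by 0.64 ± 0.10 with siRNA A (adjusted p = 0.0004, limma). With siRNA B its value was 0.09 (−0.14 to 0.31). Without control replicate 2 the siRNA B call of SRSF3 was lost (adjusted p = 0.0529, limma), and with library totals alone it had a value of 0.25 (adjusted p = 0.127).

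SRSF4 and SRSF11 rose in both siRNA groups, and for each the siRNA A and siRNA B libraries overlapped. SRSF4, one of the longest SR proteins, stood at 115, 98.3 and 113 TMM-scaled CPM in control, at 186, 127 and 177 in siRNA A and at 177, 159 and 181 in siRNA B. Both siRNA groups lay above control, by 0.56 ± 0.14 (adjusted p = 0.00573, limma) and 0.66 ± 0.14 (adjusted p = 0.00383), and their difference was −0.10 (−0.40 to 0.21). SRSF11 rose by 0.65 ± 0.17 and 0.48 ± 0.17, a larger standard error than that of most members, with values from 281 to 409 in control, 449 to 643 in siRNA A and 425 to 535 in siRNA B. Its siRNA B call did not hold without control replicate 2 or 3, siRNA A replicate 3, or siRNA B replicate 1 or 3 (limma adjusted p up to 0.1995). It was lost with the GC correction (adjusted p = 0.0941, limma) and with library totals alone (0.25) as well. On library totals neither siRNA A call of this pair passed the threshold (adjusted p = 0.301 for SRSF4 and 0.177 for SRSF11).

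The other SR genes did not follow this rise. SRSF6, which binds purine-rich exonic enhancers, stood at 343, 342 and 349 TMM-scaled CPM in control, at 298, 272 and 308 in siRNA A and at 409, 322 and 393 in siRNA B. It was lower with siRNA A than with siRNA B by 0.35 on the log2 scale (value −0.35 ± 0.11, adjusted p = 0.0255, limma), and its value against control was −0.24 (adjusted p = 0.0875). SRSF9 was likewise lower with siRNA A than with siRNA B (−0.53 ± 0.15, adjusted p = 0.0182, limma), while neither group was called against control. SRSF9 overlaps DYNLL1 and GATC on the other strand, and the use of strand in counting was not stated. The SRSF6 difference did not hold without siRNA A replicate 1 or 2 or siRNA B replicate 1 or 3 (limma adjusted p up to 0.109), and that of SRSF9 without siRNA A replicate 2 or siRNA B replicate 1 or 3 (up to 0.0795).

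SRSF5 had values of −0.09 (−0.35 to 0.16) with siRNA A and −0.08 (−0.33 to 0.18) with siRNA B. With library totals alone SRSF5, SRSF6 and SRSF9 were called lower with siRNA A, at −0.46, −0.60 and −0.57. SRSF10, which acts as a repressor when dephosphorylated, rose by 0.28 ± 0.09 with siRNA B (adjusted p = 0.0342, limma), from 189, 181 and 205 TMM-scaled CPM to 233, 232 and 235. That call ended when any 1 of the 6 control and siRNA B libraries was left out (limma adjusted p up to 0.143), and also with the GC correction (adjusted p = 0.176) and with library totals alone (adjusted p = 0.628).

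The TRA2 proteins bind GAA-rich exonic enhancers and differed from each other. TRA2B stood at 269, 244 and 269.9 TMM-scaled CPM in control, at 437, 453 and 442 in siRNA A and at 326, 337 and 338 in siRNA B. The 3 groups did not overlap, and the rises were 0.77 ± 0.09 (adjusted p = 4.49e-05, limma) and 0.35 ± 0.09 (adjusted p = 0.00968). Without control replicate 2 the second call was lost (adjusted p = 0.0528, limma), and with library totals alone its value was 0.14 (adjusted p = 0.265). TRA2A, its paralogue, was not called, with values of 0.18 (−0.07 to 0.44) and 0.02 (−0.24 to 0.27).

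Of the 22 hnRNP genes, 13 rose (59.1%, all genes 23.9%) and 3 fell (13.6%, all genes 27.6%) with siRNA A. With siRNA B 4 rose (18.2%, all genes 15.6%) and 3 fell (13.6%, all genes 18.3%), shares near those of all genes. Between the siRNA groups 13 were higher (59.1%, all genes 17.6%) and 3 lower (13.6%, all genes 19.5%) with siRNA A. The median log2 fold change was 0.43 with siRNA A and 0.11 with siRNA B, and with library totals alone it was 0.06 and −0.10, above the median of all genes on that scale (−0.34 and −0.18). On library totals 6 rose (27.3%, all genes 9.05%) and 3 fell (13.6%, all genes 47.0%) with siRNA A. With siRNA B 2 rose (9.09%, all genes 6.90%) and 5 fell (22.7%, all genes 29.7%) on that scale. Summed over the family, CPM as deposited was 8856 ± 263 in control, 8814 ± 182 in siRNA A and 8345 ± 212 in siRNA B (SD, n = 3).

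HNRNPA1, an exon silencer and one of the best studied hnRNPs, had the largest rise of the family. It stood at 145, 128 and 145 TMM-scaled CPM in control, at 279, 415 and 278 in siRNA A and at 221, 226 and 204 in siRNA B. The groups did not overlap, and siRNA A replicate 2 was well above the other libraries of its group. The log2 fold change was 1.19 ± 0.14 with siRNA A (adjusted p = 6.3e-05, limma) and 0.64 ± 0.14 with siRNA B (adjusted p = 0.00574). Both were called with library totals alone too, at 0.82 and 0.43. The annotation lists 74 pseudogenes of HNRNPA1, more than for any other member, and how the authors' counting shared reads among such copies was not stated, so its level is uncertain. For HNRNPA3 16 pseudogenes are listed and for HNRNPC 9.

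HNRNPA0, a relative of HNRNPA1 encoded by a gene of 1 exon (chromosome 5, 137081340 to 137090052, GRCh37, minus strand), moved in opposite directions. Control libraries held 159, 155 and 161 TMM-scaled CPM. The siRNA A libraries held 259, 349 and 263, and the siRNA B libraries 91.96, 94.97 and 90.3. Every siRNA A library lay above every control library and every siRNA B library below. The log2 fold change was 0.85 ± 0.12 with siRNA A (adjusted p = 0.000122, limma) and −0.77 ± 0.12 with siRNA B (adjusted p = 0.00047), and the direct difference was 1.63 ± 0.12 (adjusted p = 5.82e-06). With library totals alone the values were 0.49, −0.98 and 1.47, all called. No annotated gene overlaps HNRNPA0 on either strand.

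HNRNPUL2, an RNA- and DNA-binding relative of HNRNPU (chromosome 11, 62480102 to 62494929, GRCh37, minus strand), had the largest fall among the members. It stood at 42.4, 40.6 and 39.2 TMM-scaled CPM in control, at 8.83, 11.5 and 10.8 in siRNA A and at 29.8, 27.9 and 35.2 in siRNA B. The 3 groups did not overlap. The fold with siRNA A was 0.271, or −1.88 ± 0.12 on the log2 scale (adjusted p = 2.12e-06, limma), and the siRNA B value was −0.39 ± 0.12 (adjusted p = 0.0309). Leaving out any 1 of the control libraries, or siRNA B replicate 1 or 2, ended the siRNA B call (limma adjusted p up to 0.0883). Reads of the annotated readthrough HNRNPUL2-BSCL2 on the same strand could have been counted or dropped here.

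Its paralogue HNRNPUL1 moved the other way in the siRNA B libraries. It held 268, 276 and 322 TMM-scaled CPM in control, 302, 342 and 322 in siRNA A and 420, 519 and 429 in siRNA B. It rose by 0.66 ± 0.12 with siRNA B (adjusted p = 0.00131, limma), whereas its siRNA A value was 0.16 (−0.09 to 0.41). HNRNPU, a large nuclear matrix protein also called SAF-A, stood at 934, 897 and 887 in control and at 738, 699 and 794 in siRNA A. It fell by 0.29 on the log2 scale with siRNA A (value −0.29 ± 0.10, adjusted p = 0.0344, limma), whereas its siRNA B value was 0.10 (−0.12 to 0.33). The call of HNRNPU ended when any 1 of the control libraries or siRNA A replicate 1 or 2 was left out (limma adjusted p up to 0.0956). HNRNPUL1 overlaps TGFB1 and HNRNPU overlaps COX20 on the other strand.

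PTBP1, which binds pyrimidine tracts and represses many exons, fell in both siRNA groups. Its libraries held 519, 607 and 564 TMM-scaled CPM in control, 427, 460.4 and 432 in siRNA A and 454, 399.6 and 411 in siRNA B. The siRNA groups overlapped each other and both lay below control, by −0.35 ± 0.10 (adjusted p = 0.012, limma) and −0.42 ± 0.10 (adjusted p = 0.00812). With the GC correction both calls were lost (limma adjusted p = 0.269 and 0.0519). Its paralogue PTBP2, enriched in neurons and taken from the list of other splicing regulators, rose in both, from 14.8, 15.6 and 18.0 in control to 33.0, 31.7 and 37.2 in siRNA A and 29.97, 37.5 and 23.5 in siRNA B. The log2 fold change of PTBP2 was 1.03 ± 0.15 (adjusted p = 0.000244, limma) and 0.85 ± 0.15 (adjusted p = 0.00156).

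A group of hnRNPs rose with siRNA A and was not called with siRNA B. HNRNPC, which binds uridine tracts, stood at 367, 357 and 359 TMM-scaled CPM in control, at 569, 671 and 577 in siRNA A and at 366, 326 and 337 in siRNA B. Its siRNA A libraries were above all others, and the values were 0.74 ± 0.10 (adjusted p = 0.000123, limma) and −0.08 (−0.30 to 0.14). HNRNPD, known as AUF1 and a regulator of AU-rich mRNAs, rose by 0.54 ± 0.12 and had a value of −0.25 (−0.52 to 0.01) with siRNA B. HNRNPH2, one of the G-tract binding proteins, rose by 0.76 ± 0.11 against 0.04 (−0.20 to 0.28) with siRNA B, and HNRNPA3 by 0.61 ± 0.10 against 0.04 (−0.17 to 0.25). In each of these the direct difference between siRNA A and siRNA B was called too, at 0.82, 0.79, 0.73 and 0.57. With library totals alone the siRNA A calls of HNRNPD (adjusted p = 0.237) and HNRNPA3 (adjusted p = 0.0793) were lost, and HNRNPD was called lower with siRNA B (−0.47, adjusted p = 0.00837). HNRNPD was called lower with siRNA B also without control replicate 2 (−0.41, adjusted p = 0.0144, limma). The annotated readthrough RPL36A-HNRNPH2 overlaps HNRNPH2 on the same strand, and its reads could have been counted or dropped for that gene.

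HNRNPL, which binds CA repeats, rose by 0.85 ± 0.13 with siRNA A (adjusted p = 0.000273, limma), from 187, 171 and 188 TMM-scaled CPM to 301, 415 and 286, and siRNA A replicate 2 was again the highest. Its siRNA B libraries, at 222, 227 and 231, also lay above control. The siRNA B value was 0.32 (0.03 to 0.60), not called (adjusted p = 0.0805, limma). With the GC correction it was called higher (0.36, adjusted p = 0.0469, limma). SYNCRIP (hnRNP Q), whose gene lies 6427 bases from SNHG5 on chromosome 6 (SYNCRIP 86317497 to 86353781, SNHG5 86360209 to 86388650, GRCh37), rose by 0.62 ± 0.11 (adjusted p = 0.000738, limma). That distance rests on the SNHG5 span of the annotation used here, which is much longer than the genomic locus cloned in the paper. SYNCRIP stood at 435, 409.6 and 492 in control, at 727, 607 and 721 in siRNA A and at 483, 513 and 507 in siRNA B. With siRNA B its value was 0.17 (−0.07 to 0.41), and with library totals alone the siRNA A call was lost (adjusted p = 0.0829).

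HNRNPR, close in sequence to SYNCRIP, and HNRNPK, which binds C-rich sequence, were called higher in both siRNA groups. HNRNPR stood at 265, 235 and 283 TMM-scaled CPM in control, at 444, 419 and 447 in siRNA A and at 311, 381 and 349.8 in siRNA B. The HNRNPR values were 0.74 ± 0.11 and 0.41 ± 0.11, and those of HNRNPK 0.59 ± 0.10 and 0.30 ± 0.10. Without control replicate 2 the siRNA B call of HNRNPR was lost (adjusted p = 0.0743, limma). That of HNRNPK ended when any 1 of the control libraries or siRNA B replicate 1 or 3 was left out (limma adjusted p up to 0.132). With library totals alone neither siRNA B call held (adjusted p = 0.165 and 0.572), nor did the siRNA A call of HNRNPK (0.086). Its siRNA B call was also lost with the GC correction (adjusted p = 0.086, limma).

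HNRNPF rose by 0.45 ± 0.11 with siRNA A, HNRNPA2B1 by 0.41 ± 0.14 and HNRNPLL by 0.28 ± 0.10, and none of these was called with siRNA B. HNRNPA2B1, the most abundant member, ranged from 1042 to 1522 TMM-scaled CPM in control and from 1622 to 1673 in siRNA A. The call of HNRNPA2B1 ended when control replicate 1 or 2 or any 1 siRNA A library was left out (limma adjusted p up to 0.120). That of HNRNPLL ended when any 1 control library, siRNA A replicate 2 or 3, or siRNA B replicate 1 was left out (up to 0.103), and its value turned to −0.07 with library totals alone. On that scale HNRNPF had a value of 0.08 (adjusted p = 0.599, limma) and HNRNPA2B1 one of 0.04 (0.786). With the GC correction the calls of HNRNPA2B1 (adjusted p = 0.0674, limma) and HNRNPLL (0.202) were lost. HNRNPAB, HNRNPDL, HNRNPH1, HNRNPH3 and HNRNPM were not called against control, with values from 0.17 to 0.33 with siRNA A and from −0.30 to 0.33 with siRNA B. HNRNPAB was called higher with siRNA A (adjusted p = 0.0105, limma), and HNRNPM with siRNA B (0.0264), under the GC correction, and HNRNPDL lower with siRNA B (0.00806) on library totals. Of these genes, HNRNPAB (0.45) and HNRNPDL (0.54) were higher with siRNA A than with siRNA B. The HNRNPAB difference did not hold without siRNA A replicate 1 or 3 or siRNA B replicate 2 (limma adjusted p up to 0.0759), and that of HNRNPDL without siRNA A replicate 2 (0.0525).

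Further calls between the siRNA groups were lost when any of several libraries was left out. Those of HNRNPK (0.30), HNRNPF (0.32) and HNRNPR (0.33) each did not hold without 4 or more of the 6 libraries compared (limma adjusted p up to 0.114, 0.120 and 0.129). For HNRNPF and HNRNPR the libraries were replicates 1 and 3 of both siRNA groups, and for HNRNPK siRNA A replicate 2 or 3 and each siRNA B library. With library totals alone 8 of the differences between siRNA A and siRNA B were not called, those of HNRNPAB, HNRNPF, HNRNPK, HNRNPR, SYNCRIP, U2AF2, SF3B1 and SON (limma adjusted p from 0.061 to 0.317).

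**Figure D4:**
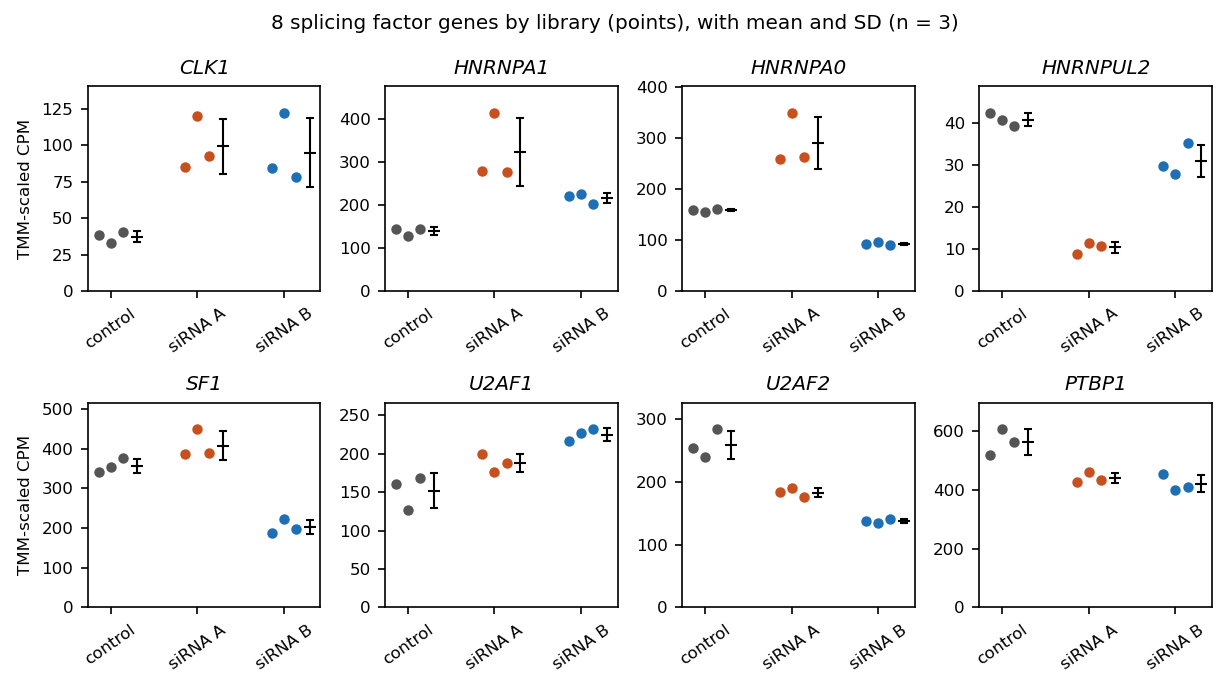
Points are the TMM-scaled CPM of each library for 8 genes, with the mean and SD of each group (n = 3) in black; each vertical axis starts at 0. CLK1 is higher in both siRNA groups, HNRNPA0 lies above control with siRNA A and below it with siRNA B, and U2AF1 and U2AF2 move apart.

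The factors that mark the branch point and the 3′ splice site changed in different directions from one another. U2AF is a dimer in which U2AF2 binds the pyrimidine tract and U2AF1 the AG at the intron's end. U2AF2 stood at 253, 239 and 283 TMM-scaled CPM in control, at 184, 189 and 175 in siRNA A and at 138, 135 and 140.4 in siRNA B. U2AF1 stood at 161, 127 and 169, at 200.1, 177 and 188 and at 216, 227 and 232. All 3 groups were apart for both genes, in opposite orders.

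U2AF2 fell by 0.49 with siRNA A (value −0.49 ± 0.09, adjusted p = 0.00108, limma) and by 0.90 with siRNA B (value −0.90 ± 0.09, adjusted p = 4.86e-05), each on the log2 scale. U2AF1 rose by 0.31 ± 0.11 (adjusted p = 0.038, limma) and 0.57 ± 0.11 (adjusted p = 0.00284). Per kb of transcript, U2AF1 was at 161 and U2AF2 at 120.5 in control, and at 238 and 64.1 in siRNA B. The siRNA A call of U2AF1 did not hold without control replicate 2, siRNA A replicate 1 or 3, or siRNA B replicate 1 (limma adjusted p up to 0.182), and with library totals alone its value was −0.05 (adjusted p = 0.718). With the GC correction the siRNA A call of U2AF1 missed the threshold (adjusted p = 0.0691, limma). U2AF2 was still called lower under that correction, at −0.24 with siRNA A (adjusted p = 0.0496, limma) and −0.74 with siRNA B (adjusted p = 0.000174).

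SF1, which binds the branch point before U2 snRNP arrives (chromosome 11, 64532078 to 64546258, GRCh37, minus strand), stood at 342, 353 and 375 TMM-scaled CPM in control, at 386, 449 and 389 in siRNA A and at 189, 222 and 197 in siRNA B. It fell by 0.82 with siRNA B (value −0.82 ± 0.10, adjusted p = 0.000168, limma), whereas its siRNA A value was 0.19 (−0.04 to 0.42). With the GC correction SF1 was called higher with siRNA A (0.37, adjusted p = 0.0137, limma) and lower with siRNA B (−0.68, adjusted p = 0.000738). The direct difference was 1.01 ± 0.10 (adjusted p = 5.19e-05, limma). SF3B1, the U2 snRNP protein that clasps the branch site, rose by 0.72 ± 0.12 with siRNA A (adjusted p = 0.000608, limma), and its siRNA B value was 0.34 (adjusted p = 0.0551). Its libraries held 412, 470.3 and 463 in control, 640.4, 839 and 748 in siRNA A and 538, 636 and 531 in siRNA B. The difference between the siRNA groups, 0.38, did not hold without siRNA A replicate 2 or 3 or siRNA B replicate 1 or 3 (limma adjusted p up to 0.111).

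All 3 speckle proteins rose with siRNA A, and SON was the one called with siRNA B. SON, a large scaffold of nuclear speckles, stood at 458, 443 and 421 TMM-scaled CPM in control, at 732, 746 and 799 in siRNA A and at 558, 560.1 and 612 in siRNA B. The 3 groups did not overlap, and the values were 0.78 ± 0.10 (adjusted p = 6.69e-05, limma) and 0.39 ± 0.10 (adjusted p = 0.00938). SRRM1, a splicing coactivator that binds exon-bound SR proteins, rose by 0.87 ± 0.14 with siRNA A, whereas its siRNA B value was 0.22 (−0.08 to 0.52). SRRM2, the other main speckle scaffold, rose by 0.43 ± 0.14 with siRNA A, whereas its siRNA B value was 0.09 (−0.21 to 0.38). The SRRM2 call did not hold without control replicate 1 or siRNA A replicate 2 or 3 (limma adjusted p up to 0.0875) and with library totals alone (0.724), and the siRNA B call of SON without control replicate 3 (0.0541) and with library totals (0.238). SON overlaps GART and DONSON, and SRRM2 overlaps ELOB, on the other strand.

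CLK1 and CLK4, kinases that phosphorylate SR proteins in the nucleus, rose in both siRNA groups. CLK1 (chromosome 2, 201717732 to 201729414, GRCh37, minus strand) stood at 38.4, 33.2 and 40.1 TMM-scaled CPM in control, at 84.8, 120.2 and 92.2 in siRNA A and at 84.4, 122 and 77.9 in siRNA B. Each library of both siRNA groups was above every control library, and the siRNA groups overlapped. The fold was 2.60 with siRNA A and 2.46 with siRNA B, log2 values of 1.38 ± 0.17 (adjusted p = 7.62e-05, limma) and 1.30 ± 0.17 (adjusted p = 0.000224). The difference between siRNA A and siRNA B was 0.07 (−0.30 to 0.45). With library totals alone the values were 1.01 and 1.09, both called.

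CLK4 was the least abundant member per kb in control, and HNRNPUL2 in both siRNA groups. CLK4 stood at 8.81, 8.03 and 11.2 TMM-scaled CPM in control, 13.8, 15.9 and 14.5 in siRNA A and 15.03, 23.0 and 14.8 in siRNA B. It rose by 0.61 ± 0.17 (adjusted p = 0.0111, limma) and 0.83 ± 0.17 (adjusted p = 0.00344). Without control replicate 2 the siRNA A call was lost (adjusted p = 0.0539, limma), as it was with library totals alone (0.157). The annotation lists 8 transcripts with a retained intron for CLK1 and 7 for CLK4. In siRNA A, replicate 2 was the highest library of its group for 25 of the 43 members, and in siRNA B replicate 2 was the highest for 19. Among the control libraries, replicate 2 was the lowest for 27 and replicate 3 the highest for 23. The 2 siRNA libraries had the fewest reads, 15566530 and 16340856, and the part of depth in these values was not tested.

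**Figure D5:**
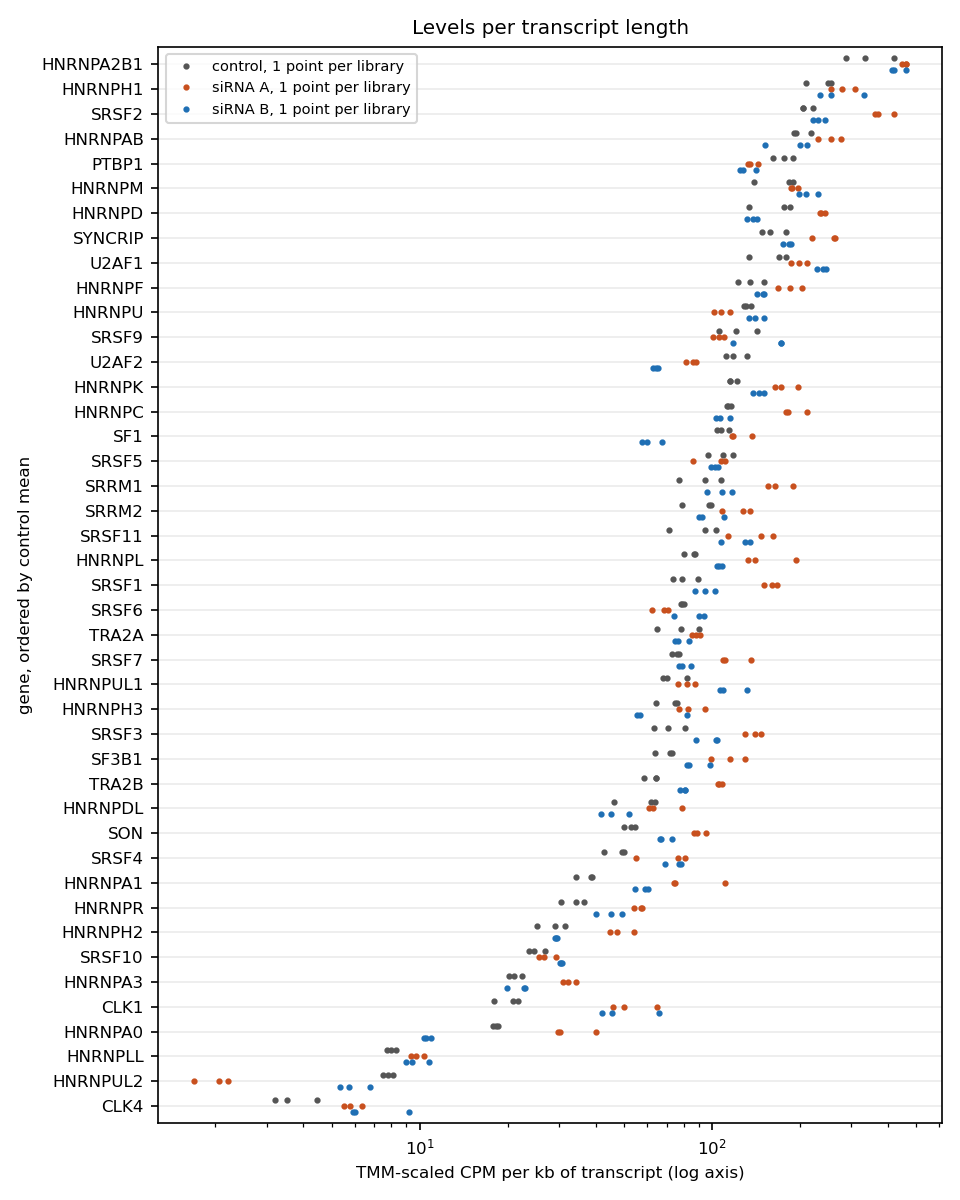
Points give TMM-scaled CPM per kb of the reference transcript for each library on a log axis, with genes ordered by their control mean. HNRNPA2B1 leads in every group, CLK4 and HNRNPUL2 are lowest, and PTBP1, U2AF2 and SF1 move left in siRNA B.

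Levels were set side by side per kb of the MANE Select transcript, the reference transcript of each gene, as TMM-scaled CPM per kb. HNRNPA2B1 led in control at 347 ± 67.1 (SD, n = 3), followed by HNRNPH1 at 238 ± 24.9, SRSF2 at 211 ± 10.1, HNRNPAB at 201 ± 15.4 and PTBP1 at 176 ± 13.6. At the other end stood HNRNPA0 at 18.2 ± 0.33, HNRNPLL at 8.01 ± 0.31, HNRNPUL2 at 7.81 ± 0.30 and CLK4 at 3.73 ± 0.65. Of the 42 neighbouring pairs in this order, 35 had overlapping control ranges, so most neighbours cannot be ordered. HNRNPA2B1 stood apart from HNRNPH1, and HNRNPAB from PTBP1. PTBP1 was at rank 5 in control, 17 in siRNA A and 13 in siRNA B. SRSF3 moved from rank 28 to 16 in siRNA A and 20 in siRNA B, and SF1 from 16 to 18 and 32.

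The rest of the splicing machinery was described by lists of 127 genes, of which 125 had a row. With siRNA A 65 rose (52%, all genes 23.9%) and 10 fell (8%, all genes 27.6%), with a median of 0.35. With siRNA B 29 rose (23.2%, all genes 15.6%) and 11 fell (8.8%, all genes 18.3%), with a median of 0.17. On library totals, which move the median of all genes below 0, 23 rose (18.4%, all genes 9.05%) and 30 fell (24%, all genes 47.0%) with siRNA A, and 9 rose (7.2%, all genes 6.90%) and 19 fell (15.2%, all genes 29.7%) with siRNA B. The U2 snRNP proteins had the highest list median with siRNA A, 0.62, with 10 of 14 higher (71.4%, all genes 23.9%) and none lower. With siRNA B 3 of 14 were higher (21.4%, all genes 15.6%, median 0.19). On library totals 4 rose (28.6%, all genes 9.05%) and 1 fell (7.14%, all genes 47.0%) with siRNA A. SF3B4, a subunit of the SF3b complex that holds SF3B1, rose from 132, 124 and 126 TMM-scaled CPM to 278, 317 and 249.4 in siRNA A and 171, 165 and 167 in siRNA B. Its values were 1.13 ± 0.10 (adjusted p = 8.7e-06, limma) and 0.39 ± 0.10 (adjusted p = 0.0118). With library totals alone the siRNA B call of SF3B4 was lost (0.18, adjusted p = 0.207, limma). SF3A2, of the neighbouring SF3a complex, rose by 0.71 and 0.69.

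Of the exon junction complex list 7 of 10 genes rose with siRNA A (70%, all genes 23.9%) and 4 with siRNA B (40%, all genes 15.6%). None fell, and the medians were 0.58 and 0.27. On library totals 1 rose with siRNA A (10%, all genes 9.05%). With siRNA B 2 rose (20%, all genes 6.90%) and 1 fell (10%, all genes 29.7%) on that scale. DDX39B, an RNA helicase that acts with U2AF and in mRNA export, rose from 66.3, 67.0 and 67.8 TMM-scaled CPM to 131, 205 and 137 in siRNA A and 109, 151 and 101 in siRNA B. Of 14 Sm and LSm proteins, which form the rings of the spliceosomal snRNPs, 9 rose with siRNA A (64.3%, all genes 23.9%) and 1 fell (7.14%, all genes 27.6%). With siRNA B 2 rose and 2 fell (14.3% each way, near the shares of all genes). On library totals 2 rose (14.3%, all genes 9.05%) and 5 fell (35.7%, all genes 47.0%) with siRNA A, and 3 fell with siRNA B (21.4%, all genes 29.7%). SNRPB rose with siRNA A (0.996 ± 0.23, adjusted p = 0.00404, limma), SNRPE rose in both (0.83 ± 0.15, adjusted p = 0.000701, and 0.51 ± 0.15, adjusted p = 0.02), and LSM7 fell in both (−0.78 and −0.60). With library totals alone the siRNA B call of SNRPE was lost (adjusted p = 0.128, limma). Among 8 U1 snRNP proteins 5 rose with siRNA A (62.5%, all genes 23.9%) and 2 with siRNA B (25%, all genes 15.6%). On library totals 2 rose (25%, all genes 9.05%) and 1 fell (12.5%, all genes 47.0%) with siRNA A. PRPF39 rose in both groups (0.66 and 0.35), but its siRNA B call was lost on library totals (0.14, adjusted p = 0.386, limma).

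In the U4/U6.U5 tri-snRNP list 7 of 16 rose (43.8%, all genes 23.9%) and 2 fell (12.5%, all genes 27.6%) with siRNA A. With siRNA B 2 rose and 2 fell (12.5% each way, under the shares of all genes). On library totals 2 rose (12.5%) and 3 fell (18.8%) in each comparison with control. The shares of all genes on that scale were 9.05% and 47.0% with siRNA A, and 6.90% and 29.7% with siRNA B. SART1, which recruits the tri-snRNP, had the deepest fall of all listed splicing genes with siRNA A. It stood at 99.7, 80.5 and 103 TMM-scaled CPM in control, at 24.6, 28.1 and 19.9 in siRNA A and at 23.3, 29.96 and 27.1 in siRNA B. Its values were −1.93 ± 0.15 (adjusted p = 3.47e-06, limma) and −1.78 ± 0.15 (adjusted p = 9.77e-06), and the siRNA groups overlapped. SNU13 rose with siRNA A (1.14), with a siRNA B value of 0.23, and PRPF3 rose in both (0.96 and 0.98).

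Of 19 PRP19 and catalytic step proteins 9 rose (47.4%, all genes 23.9%) and 2 fell (10.5%, all genes 27.6%) with siRNA A. With siRNA B 4 rose and 4 fell (21.1% each way, all genes 15.6% and 18.3%). On library totals 4 rose (21.1%, all genes 9.05%) and 6 fell (31.6%, all genes 47.0%) with siRNA A. With siRNA B 6 fell on that scale (31.6%, all genes 29.7%). XAB2, which links the spliceosome to DNA repair, fell from 113, 110.4 and 119 TMM-scaled CPM to 39.8, 43.6 and 35.9 in siRNA A and to 29.8, 33.6 and 29.4 in siRNA B. Its values were −1.498 ± 0.10 (adjusted p = 2.12e-06, limma) and −1.85 ± 0.10 (adjusted p = 6.94e-07). SYF2, of the same machinery, rose in both groups (1.03 and 0.61), but its siRNA B call was lost on library totals (0.40, adjusted p = 0.107, limma). Among 37 other splicing regulators 15 rose (40.5%, all genes 23.9%) and 5 fell (13.5%, all genes 27.6%) with siRNA A. With siRNA B 10 rose (27.0%, all genes 15.6%) and 3 fell (8.11%, all genes 18.3%). On library totals 6 rose (16.2%, all genes 9.05%) and 13 fell (35.1%, all genes 47.0%) with siRNA A. With siRNA B 3 rose (8.11%, all genes 6.90%) and 5 fell (13.5%, all genes 29.7%) on that scale. RBM17, which contacts SF3B1 and U2AF2 through a domain of the U2AF family, fell in both groups (−0.65 ± 0.10 and −1.13 ± 0.10). Of 7 SR protein kinases and import factors other than CLK1 and CLK4, 3 rose with siRNA A (42.9%, all genes 23.9%). With siRNA B 2 rose (28.6%, all genes 15.6%), and none fell in either comparison. On library totals 2 rose (28.6%, all genes 9.05%) and 1 fell (14.3%, all genes 47.0%) with siRNA A. DYRK1A rose from 53.9, 56.7 and 65.0 to 114, 122 and 124 and to 107, 134 and 105, while PRPF4B rose with siRNA A (1.44 ± 0.37, adjusted p = 0.00695, limma) over a control range of 126 to 289.9.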

How the data were processed

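The authors deposited CPM values (gene reads relative to the library total, brought to a common total) for 9 RNA-seq libraries, read as single ends of 50 bases. The submitters' processing notes name TopHat2, HTSeq and the GRCh37 build, and the use of strand is not given in the sources used here. Of the values, 100% were whole multiples of 1 read (tolerance 0.01), so read counts could be recovered. Rows were matched by Ensembl identifier to GENCODE on GRCh37 (14871 of 15354), and promoters came from RefSeq.

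Each library was scaled by its TMM factor, and log2(CPM + 1) was tested with limma 3.58.1 in R 4.3.3 (1 mean per group, trended variance, Benjamini-Hochberg adjustment) over the 13893 genes that reached 1 CPM in 3 or more libraries. A fold change on this scale understates that of low genes. Comparisons were siRNA A and siRNA B against control and against each other. Alternatives were library totals alone, DESeq2 size factors, pseudocounts of 0.1 and 5, no filter, a GC correction, a replicate block, count tests on the recovered reads (edgeR 4.0.16, DESeq2 1.42.0) and leaving out each library. The edgeR test called 3335 genes higher and 3825 lower with siRNA A, and 2221 and 2559 with siRNA B. Scripts were tested on simulated data. Sequence and tables were handled in Python 3.11.15. At these depths 3 reads correspond to 0.129 to 0.193 CPM. The printed confidence intervals and standard errors are those of the limma fit, so they reflect variation between the libraries of a group. An interval on read counts without molecular identifiers would cover counting error only, and none is given here.

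To look for pairing, each library was taken as its deviation from its group mean, gene by gene on the log2 scale. Between control and siRNA A, the deviations of libraries that share a number correlated across genes at 0.65, 0.41 and 0.13. Each matched its own number best. The last value is small, so a pairing is not established, and the labels do not state what a number marks. Between control and siRNA B the correlations were 0.17, 0.45 and −0.39, which gives no pairing. Between siRNA A and siRNA B they were 0.20, 0.44 and 0.02, and only number 2 matched its own number best. The main fit takes no account of the number, which entered only through the replicate block. No 2 libraries of a group agreed within sampling noise.

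The members and lists were chosen with earlier results of these data known. Every member was named, and of the other splicing lists the called gene with the largest change in each direction against control, except 1 gene that is not reported here.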

Additional observations from a re-analysis of the deposited data

Results flagged for a closer look

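HNRNPA0, an hnRNP gene of 1 exon, was flagged because its effects against the same control differed between the siRNA groups in a direct test. A called direct difference was not particular to it. With HNRNPA0 included, 23 members were higher with siRNA A than with siRNA B (53.5%, all genes 17.6%). A further 5 were lower (11.6%, all genes 19.5%). HNRNPA0 was higher than control in 3 of 3 libraries labelled siRNA A and lower in 3 of 3 labelled siRNA B. The log2 difference between siRNA A and siRNA B was 1.63 ± 0.12 (SE, limma adjusted p = 5.82e-06). It was 1.47 with library totals alone and 1.60 with the GC correction. With the TMM scaling and all libraries, no other of the 43 genes was called in opposite directions against control. SF1 was so called with the GC correction (0.37 and −0.68), and HNRNPD without control replicate 2 (0.39 and −0.41). No group had enough libraries for a check of single samples that stand apart.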

How the results depend on the processing

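Library totals alone changed most: 15 members were higher and 7 lower with siRNA A, 6 were higher and 7 lower with siRNA B, and 15 were higher and 7 lower between siRNA A and siRNA B. Of the called members, HNRNPLL (log2 value −0.0741) and U2AF1 (−0.0524) changed sign with siRNA A on that scale. Among members called on neither scale, 9 changed sign with siRNA A, 11 with siRNA B and 5 between the siRNA groups. These changes follow from the scale, whose median gene lies below 0. When each library was left out in turn, the counts with siRNA A ran from 23 to 28 higher and 3 to 5 lower, those with siRNA B from 7 to 15 and 4 to 6, and those between the siRNA groups from 18 to 23 and 3 to 5. The lowest siRNA B count came without control replicate 2, and the cause was not tested. With the replicate number as a block the counts were 28 higher and 4 lower with siRNA A, 16 and 5 with siRNA B, and 25 and 5 between them, so that HNRNPAB joined with siRNA A, and HNRNPLL, HNRNPM and SF3B1 joined with siRNA B. With the replicate block and GC correction together they were 29 and 4, 14 and 7, and 25 and 6. The edgeR test on the recovered reads gave the same call for all 43 members in each comparison, as did both other pseudocounts. DESeq2 on the reads gave 28 and 4, 16 and 5, and 25 and 5. No protein, isoform or splice junction was measured, and each member had at least 152 reads in every library. The part of depth in the values was not tested.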
